A study of Mus musculus with 3 samples.

Results

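A set of genes of fatty acid and sterol synthesis, Scd1, Scd2, Elovl6, Fasn, Hmgcs1, Sqle and Insig1, were followed across the leukocytes of mouse lungs before and after transplantation. These are 7 of the 32285 genes in the count tables, and all 7 were found in every library. They were picked by name, with their levels in the lineages of these same libraries already known, so the levels and differences below describe the libraries and carry no test. The 3 libraries were the naive left lung of C57BL/6J mice and left lung grafts harvested after 2 hours or 3 days of reperfusion. Grafts came from B6 CD45.2 donors and went into B6 CD45.1 recipients. They had 60 minutes of cold storage at 4 °C and 45 minutes at 28 °C. The study lists B6 CD45.1 mice as B6.SJL-Ptprca Pepcb/BoyJ, congenic with C57BL/6J. Each library pooled the cells of 2 mice, and there was 1 library per condition. The study sorted CD45.1 recipient cells from the grafts. The grafts' own leukocytes were thus meant to be gated out, and no source used here names the gate for the naive lungs. Naive lungs came from C57BL/6J mice and sorted graft cells from a congenic strain, so strain and transplantation cannot be told apart. All mice were 8 to 10 weeks old.

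Fatty acid synthase, encoded by Fasn, builds saturated fatty acids from acetyl and malonyl units. Elovl6 lengthens them, and the desaturases encoded by Scd1 and Scd2 place a double bond in the product. Hmgcs1 makes HMG-CoA, the precursor of mevalonate, and squalene epoxidase, encoded by Sqle, acts later on the way to cholesterol. SREBP transcription factors drive these genes when sterols are low. Insig1 encodes a membrane protein of the endoplasmic reticulum that holds the SREBP escort SCAP in place when sterols are high, and it is itself an SREBP target.

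On the mm10 assembly (GENCODE genes) Scd1 lies on the minus strand of chr19:44394455-44407879 and Scd2 on the plus strand of chr19:44293674-44306864. Elovl6 is at chr3:129532355-129638495, Fasn at chr11:120805846-120824547, Hmgcs1 at chr13:119690379-119708260, Sqle at chr15:59315077-59331192 and Insig1 at chr5:28071363-28078662, all on the plus strand except Fasn. Promoter windows of RefSeq (GRCm38.p6, 250 bases before to 50 after the start) matched 4 of the 7 genes and left Scd1, Scd2 and Sqle unmatched. All 4 matched promoters, those of Insig1, Hmgcs1, Fasn and Elovl6, are shown. The stretch upstream of both the RefSeq and the GENCODE start is printed 5′ to 3′ on the strand of the gene, at chr5:28071162-28071362 for Insig1 (plus), chr13:119690101-119690350 for Hmgcs1 (plus), chr11:120824548-120824797 for Fasn (minus) and chr3:129532136-129532354 for Elovl6 (plus). Capitals mark the letters TCACCC or their reverse complement.
Insig1: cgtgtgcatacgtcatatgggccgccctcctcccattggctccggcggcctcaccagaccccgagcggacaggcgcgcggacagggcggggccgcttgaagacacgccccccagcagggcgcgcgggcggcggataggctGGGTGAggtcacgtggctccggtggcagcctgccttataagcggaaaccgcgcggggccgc
Hmgcs1: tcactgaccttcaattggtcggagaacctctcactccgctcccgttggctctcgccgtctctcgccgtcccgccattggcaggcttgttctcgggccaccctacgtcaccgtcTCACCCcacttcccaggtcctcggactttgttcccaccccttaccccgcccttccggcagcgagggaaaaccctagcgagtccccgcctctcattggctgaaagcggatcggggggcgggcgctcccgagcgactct
Fasn: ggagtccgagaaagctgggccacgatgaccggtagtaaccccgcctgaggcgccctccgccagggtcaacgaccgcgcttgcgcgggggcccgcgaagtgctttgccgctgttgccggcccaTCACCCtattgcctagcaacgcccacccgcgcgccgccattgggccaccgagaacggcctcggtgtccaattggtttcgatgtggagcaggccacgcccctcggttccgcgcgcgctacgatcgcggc
Elovl6: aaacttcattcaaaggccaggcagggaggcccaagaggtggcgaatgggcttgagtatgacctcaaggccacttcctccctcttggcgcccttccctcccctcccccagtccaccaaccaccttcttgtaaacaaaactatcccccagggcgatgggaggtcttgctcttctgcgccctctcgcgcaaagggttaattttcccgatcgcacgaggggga

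Each whole window was searched on both strands. The sterol response element consensus TCACNCCAC was found in Hmgcs1, once, and in 1.24% of the 32851 windows of the table. The shorter TCACCC, which overlaps it in Hmgcs1, was found once each in Insig1, Hmgcs1 and Fasn and in 16.2% of all windows. The CCAAT box letters ATTGG were present 4 times in Hmgcs1, 3 times in Fasn and once in Insig1 (37.4% of all windows). The GC box GGGCGG was present 3 times in Hmgcs1 and 3 times in Insig1 (35.7%). The E-box CACGTG was present once in Insig1 (7.15%). The Elovl6 window held none of these 5 motifs.

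After filtering, 2422 naive, 10283 2-hour and 8324 3-day cells were kept, with medians of 7298.5, 878 and 5716.5 unique molecular identifiers (UMIs, counted molecules) per cell. Cells were clustered and placed in 6 lineages by marker genes. B cells numbered 554 in the naive, 1421 in the 2-hour and 1907 in the 3-day library, T cells 577, 2502 and 1053, natural killer (NK) cells 516, 1021 and 328, neutrophils 388, 4398 and 2151, and monocytes 141, 442 and 1200. Macrophages numbered 102, 6 and 637, so the 6 cells at 2 hours entered no comparison. The naive macrophages were a cluster named from alveolar macrophage markers, those of the 3-day library were led by Saa3 and Arg1, and most clusters came from 1 library. Naive monocytes were a cluster named nonclassical, 2-hour monocytes a cluster named classical, and 3-day monocytes both. The first pair of names is unsure. Leading genes of the naive cluster included Vcan and F13a1 of the classical list, and Ace of the nonclassical list led the 2-hour cluster. Summed classical and nonclassical markers stood at 6408 CPM and 2759 CPM in naive monocytes and at 3559 CPM and 2065 CPM at 2 hours. Libraries shared between 1 and 23 cell barcodes. Levels are in CPM, the UMIs of a gene per 1000000 UMIs of that lineage in that library, with 95% Poisson intervals that cover counting error only. Both graft files were written by Cell Ranger 6.0.0 and the naive file by 7.1.0, according to their headers, and whether reads in introns were counted was not given. Of genes with introns near the length of those of Elovl6, the median log2 ratio of the 2-hour to the naive library was -1.38 in T cells and -1.41 in NK cells, so ratios against the naive library are given beside such medians where they matter.

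**Figure D1:**
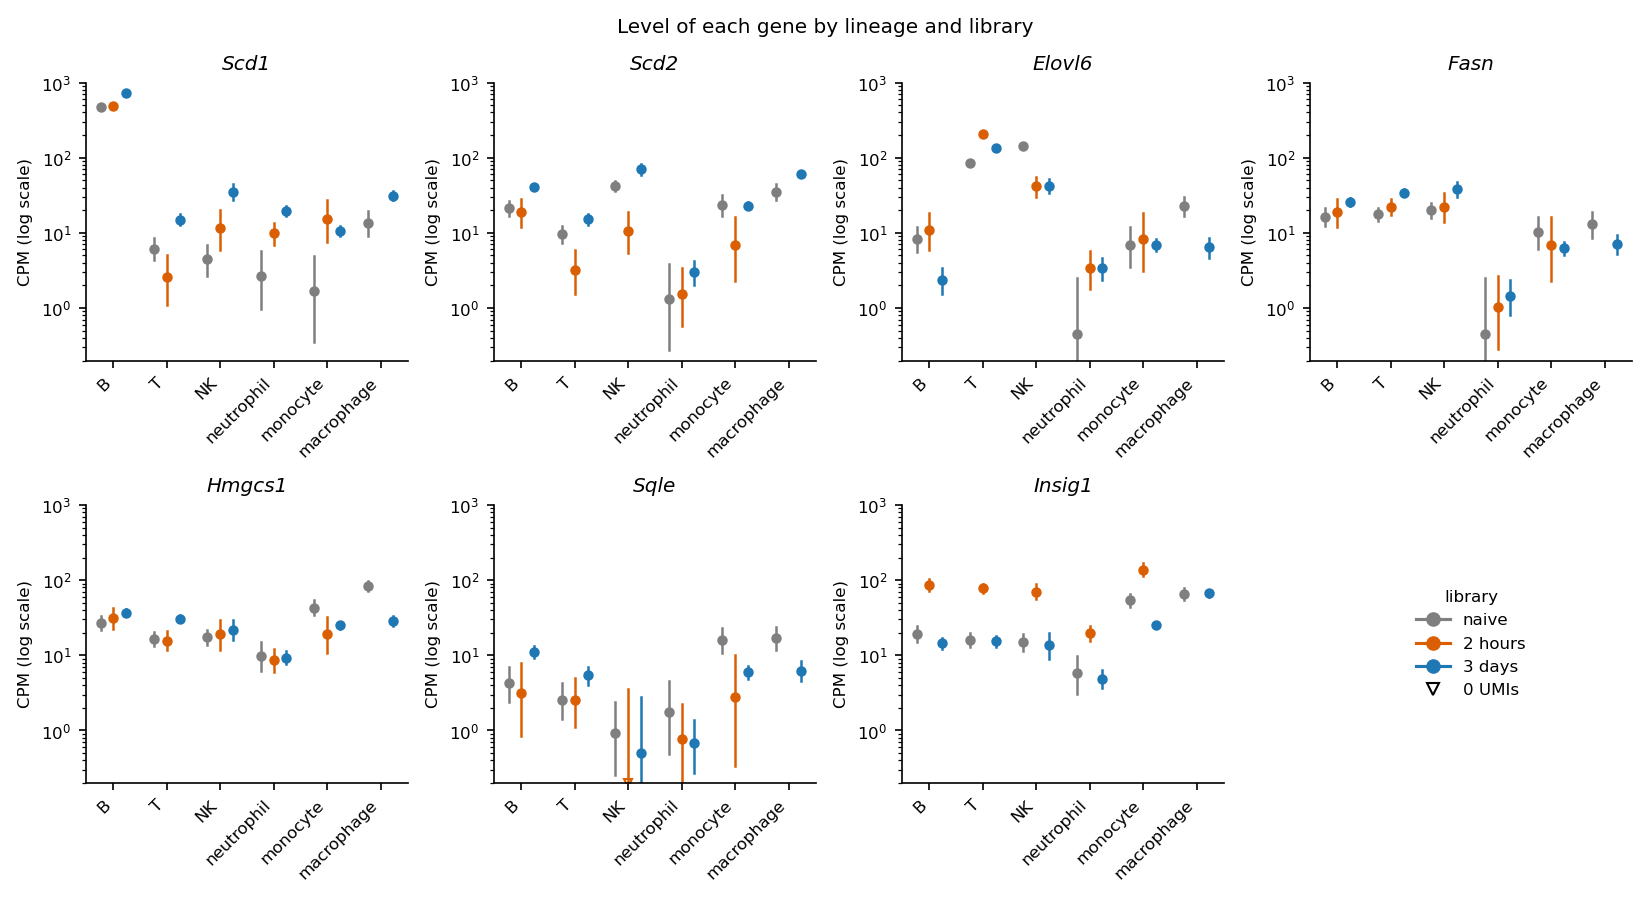
Level of each of the 7 genes (CPM, log scale) in the lineages of the naive (grey), 2-hour (orange) and 3-day (blue) library, with exact 95% Poisson intervals; the 6 macrophages at 2 hours are left out. Scd1 stands apart in B cells, Elovl6 in T and NK cells, and the orange points of Insig1 lie above the other libraries in all 5 lineages drawn.

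Insig1 was the member with the same time course in every lineage that could be compared. Naive B cells held 19.5 CPM (95% interval 15.1 to 24.7), 2-hour B cells 86.1 CPM (70.7 to 104) and 3-day B cells 14.4 CPM (12.2 to 16.9). In T cells the levels were 15.9 CPM, 77.6 CPM and 15.4 CPM. NK cells gave 15.0 CPM, 70.6 CPM and 13.5 CPM. The 2-hour library was high and the other libraries low, with intervals that did not overlap, in all 3 lymphoid lineages.

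Myeloid cells had the same order at other levels. Neutrophils had 5.79 CPM of Insig1 (3.08 to 9.89) in the naive library, 19.9 CPM (15.7 to 24.9) at 2 hours and 4.91 CPM (3.66 to 6.46) at 3 days. Monocytes had 54.0 CPM (43.7 to 66.1), 138 CPM (112 to 168) and 25.3 CPM (23.0 to 27.9). Within the 3-day library the classical cluster had 20.1 CPM and the nonclassical cluster 43.6 CPM, so the Insig1 level differed between kinds of monocyte there. The kind of monocyte also differed between libraries, under names that are unsure, and its part in their Insig1 differences was not tested. Macrophages had 65.5 CPM of Insig1 (54.7 to 77.8) in the naive library and 66.5 CPM (60.5 to 73.0) at 3 days, and the order of lineages within the 3-day library was macrophages, monocytes, and then T, B and NK cells, whose neighbouring levels did not differ beyond their intervals, with neutrophils lowest.

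As log2 ratios of 3 days to 2 hours, Insig1 was at -2.58 in B cells (95% interval -2.94 to -2.21), -2.33 in T cells, -2.38 in NK cells, -2.02 in neutrophils and -2.44 in monocytes. These 5 differences are all of the member-lineage pairs that were 2-fold or more lower at 3 days than at 2 hours, out of 20 of 35 pairs that averaged 10 CPM or more over the libraries. Over all genes and the same lineages, 6.54% of gene-lineage pairs were lower by that much and 13.4% higher. By lineage the lower share was 5.96% in B cells, 6.18% in T cells, 6.18% in NK cells, 6.94% in neutrophils and 7.65% in monocytes, and the higher share 13.7%, 10.7%, 14.3%, 13.4% and 15% in the same order. The median gene was itself 0.20 to 0.26 higher on the log2 scale at 3 days than at 2 hours. Insig1 was also the one member past 2-fold in 5 lineages between 2 hours and naive, where 8.47%, 7.11%, 8.27%, 9.07% and 9.14% of all genes in B, T, NK, neutrophil and monocyte lineages were as much higher and 28.9%, 26.3%, 25.8%, 22.9% and 26.4% as much lower. Its ratios of 2 hours to naive were 2.15 in B cells, 2.28 in T cells, 2.24 in NK cells, 1.78 in neutrophils and 1.35 in monocytes. Insig1 has introns of 4.207 kb in all, and centring on the 200 genes nearest in intronic length left these ratios between 1.22 and 2.12. In neutrophils Insig1 averaged 10 CPM or more only through its 2-hour level of 19.9 CPM, beside 5.79 CPM naive and 4.91 CPM at 3 days. That pair thus entered both comparisons through the level that sets its differences.

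The share of cells with an Insig1 UMI was also highest at 2 hours once depth was equalised. Cells were thinned to 500 UMIs each, which left out shallower cells of the 2-hour library only, 61 of 1421 B cells, 14 of 2502 T cells, 41 of 1021 NK cells, 340 of 4398 neutrophils and 3 of 442 monocytes. Of the cells so thinned, 0.722% of naive, 4.49% of 2-hour and 0.839% of 3-day B cells held an Insig1 UMI. The naive share, from 4 cells, was the lowest by this measure, where by CPM the 3-day level was, and the naive and 3-day intervals overlap in both. The thinned shares were 0.173%, 3.86% and 0.475% in T cells and 0.775%, 4.90% and 0.915% in NK cells. Without thinning they were 9.75%, 7.11% and 7.34% in B cells, whose median depths were 6179.5, 753 and 5018 UMIs, so the order of the unthinned shares followed depth and not the CPM. No cell held more than 7 Insig1 UMIs in B cells or more than 5 in T cells of any library. In neutrophils, the lineage with the lowest level, the thinned share at 2 hours was 0.813% at a median depth of 751 UMIs. Thinned shares of monocytes were 3.55% (1.16% to 8.08%), 5.01% (3.17% to 7.49%) and 1.42%, and their naive and 2-hour intervals overlap. The 2-hour level was spread over clusters, with 84.9 CPM, 63.6 CPM and 72.5 CPM in the 3 T clusters of that library.

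**Figure D2:**
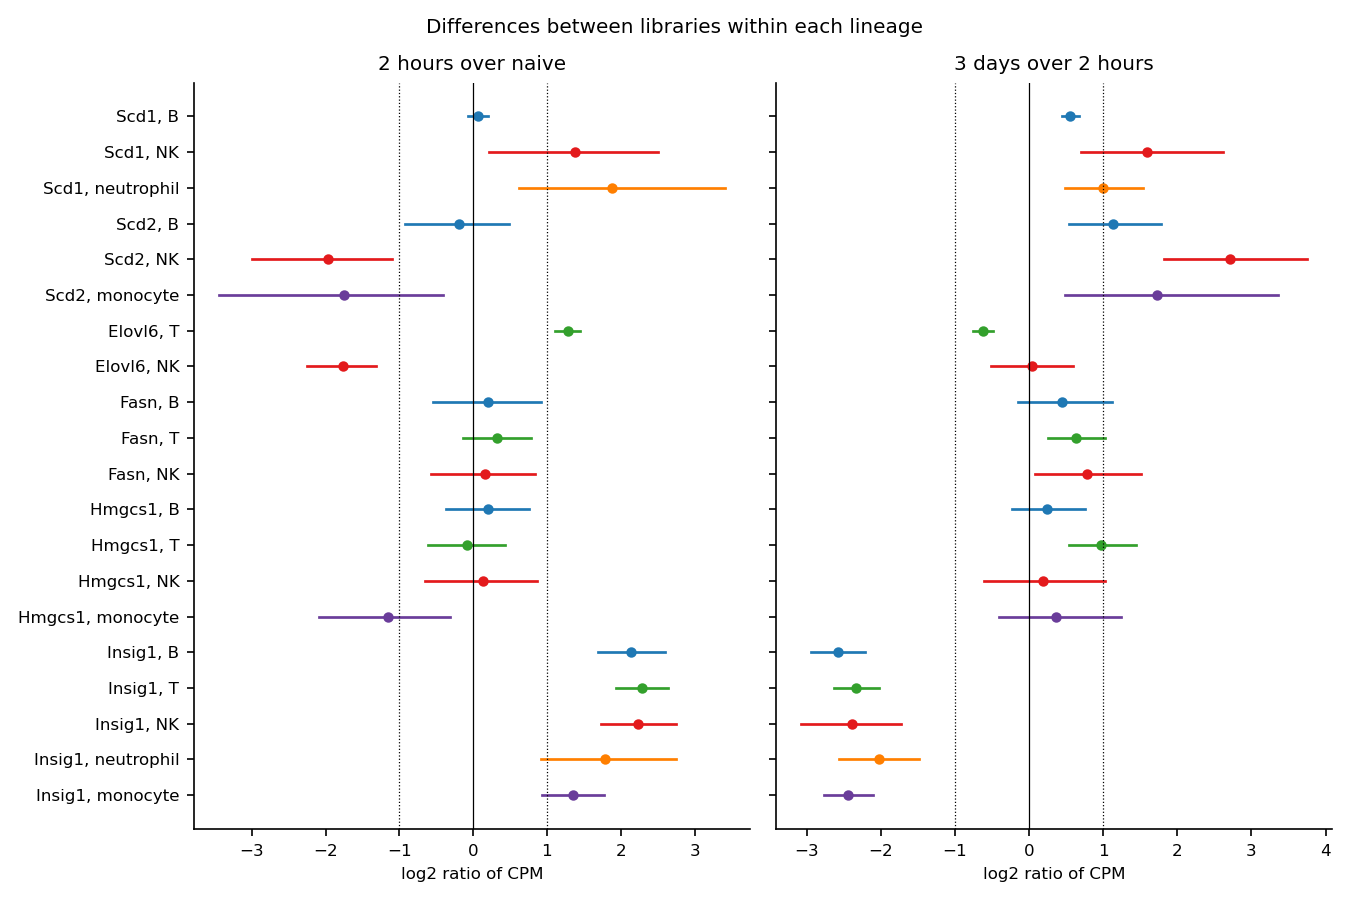
Log2 ratios of CPM of each gene within each lineage where it averaged 10 CPM or more, 2 hours over naive (left) and 3 days over 2 hours (right), with exact 95% intervals that cover counting error only; dotted lines mark 2-fold. Insig1 lies right of the upper line on the left and left of the lower line on the right in 5 of 5 lineages. In neutrophils it averaged 10 CPM or more only through its 2-hour level.

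Hmgcs1 and Sqle, the members of the sterol branch, did not share this course. Hmgcs1, which makes HMG-CoA, was at 27.2 CPM, 31.3 CPM and 37.0 CPM in naive, 2-hour and 3-day B cells. In T cells it was at 16.6 CPM, 15.7 CPM and 30.9 CPM, a log2 ratio of 3 days to 2 hours of 0.97 (0.53 to 1.44). In NK cells it was at 17.6 CPM, 19.3 CPM and 22.0 CPM, with intervals that overlap, and in neutrophils at 9.79 CPM, 8.79 CPM and 9.35 CPM. The highest Hmgcs1 level of each lymphoid lineage was at 3 days, and not at 2 hours. Beyond counting error this held in T cells only. The log2 ratio of 3 days to 2 hours was 0.24 (-0.23 to 0.75) in B cells and 0.19 (-0.61 to 1.03) in NK cells.

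Among the 6 lineages, Hmgcs1 was highest in naive macrophages and monocytes. Naive macrophages had 84.1 CPM (71.9 to 97.9) and 3-day macrophages 28.8 CPM (24.9 to 33.1), a log2 ratio of -1.55 (-1.85 to -1.24) that was -0.47 with cells thinned to 500 UMIs. Monocytes had 43.2 CPM (34.1 to 54.1) in the naive library, 19.5 CPM (10.7 to 32.7) at 2 hours and 25.0 CPM (22.7 to 27.6) at 3 days. Within the naive library the macrophage level was 1.95 times the monocyte level, and at 3 days 1.15 times, with a log2 interval from -0.05 to 0.45. In the 3-day library the nonclassical monocyte cluster had 42.2 CPM, close to the 43.5 CPM of the naive cluster named nonclassical, and the classical cluster 20.3 CPM, so the monocyte difference cannot be told apart from the kind of monocyte sampled. The log2 ratio of 2 hours to naive in monocytes, -1.15, was -0.71 when centred on genes of its intronic length class.

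Sqle averaged under 10 CPM in every lineage but macrophages. It stood at 17.1 CPM (11.9 to 23.9) in naive and 6.26 CPM (4.51 to 8.47) in 3-day macrophages, a log2 ratio of -1.45 (-2.14 to -0.76) that was -0.64 with thinning. Monocytes had 15.9 CPM, 2.78 CPM and 5.94 CPM in naive, 2-hour and 3-day cells, the 2-hour value resting on 2 UMIs. B cells had 4.29 CPM, 3.13 CPM and 11.2 CPM, and T cells 2.57 CPM, 2.57 CPM and 5.39 CPM. Sqle UMIs in NK cells numbered 4 (naive), 0 (2 hours) and 1 (3 days), and the count of 0 allows up to 2.90 CPM by a limit of 3 counts and 3.57 CPM by the exact interval. Across the 17 lineage-library groups of at least 50 cells the Pearson correlation of Hmgcs1 and Sqle, on log2(CPM + 10), was 0.86, and Hmgcs1 and Idi1, which encodes isopentenyl diphosphate isomerase, were among the 3 genes most like Sqle. Groups of 1 library share its preparation, so these values are descriptions.

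Other genes of sterol synthesis and its control, from lists drawn up with earlier results known, are plotted with Insig1. Of 22 sterol synthesis genes, 12 in B cells, 13 in T cells and 12 in NK cells passed 10 CPM. Their median log2 ratios of 2 hours to naive were -0.23, -0.07 and 0.11, beside -0.34, -0.32 and -0.27 over all genes. In neutrophils 9 passed, with a median of -0.28 beside -0.25. Monocytes went lower, with 13 that passed and a median of -0.86 beside -0.29. Of those 13, 5 were 2-fold or more lower and 1 higher, where 26.4% and 9.14% of all genes were. What part the kind of monocyte has in these values was not tested.

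Of the 11 genes of SREBP control and lipoprotein uptake, 8, 9, 9, 3 and 9 passed 10 CPM in B, T, NK, neutrophil and monocyte lineages. Among those, Insig1 was the single one 2-fold or more lower at 3 days than at 2 hours in each of the 5 lineages. It was also the single one as much higher at 2 hours than naive. In neutrophils it passed 10 CPM only through its 2-hour level. The other way, 3, 2, 3, 1 and 3 genes were as much higher at 3 days than at 2 hours. At 2 hours 2, 4, 2, 1 and 4 were as much lower than naive. Over all genes and these lineages, 6.54% of gene-lineage pairs were lower and 13.4% higher at 3 days than at 2 hours. Against naive, 8.36% were higher and 26.2% lower at 2 hours. The list medians of 3 days over 2 hours were 0.64, 0.30, 0.76, -0.33 and 0.40 in B, T, NK, neutrophil and monocyte lineages. Over all genes they were 0.26, 0.20, 0.25, 0.22 and 0.24, and the neutrophil list median rests on 3 genes. Insig2 and Srebf2 are given for their roles, after their values were seen. The paralog Insig2 stood at 35.2 CPM, 25.8 CPM and 21.4 CPM in B cells and at 20.9 CPM, 15.7 CPM and 12.2 CPM in T cells, with no peak at 2 hours. Srebf2, which encodes an SREBP transcription factor, was at 136 CPM, 55.6 CPM and 115 CPM in B cells.

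**Figure D3:**
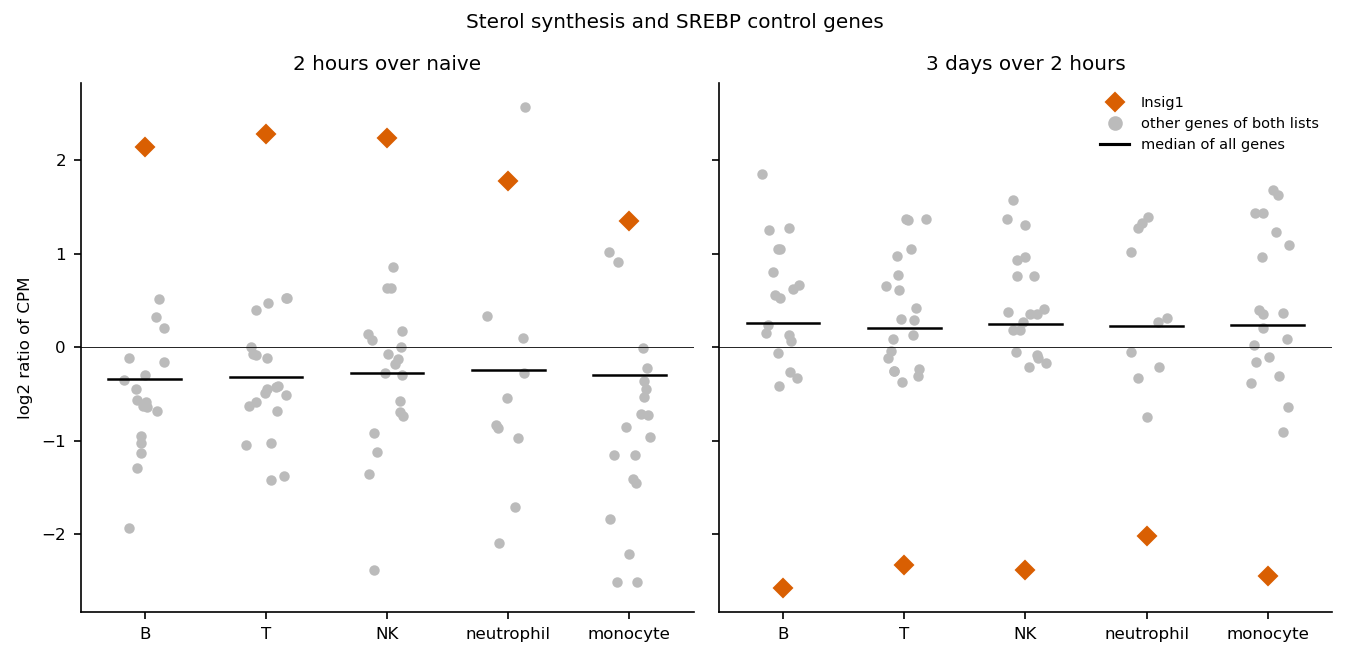
Log2 ratios of CPM of the sterol synthesis and SREBP control genes that averaged 10 CPM or more in each lineage, 2 hours over naive (left) and 3 days over 2 hours (right); each point is 1 gene and the black bars are the median of all genes. Insig1 (orange) lies above the bar on the left and below it on the right in all 5 lineages, and no other gene drawn is as low on the right; 3 genes of the lists are not drawn. In neutrophils Insig1 averaged 10 CPM or more only through its 2-hour level.

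In macrophages the sterol list stood lower at 3 days than in the naive library. Of 22 genes 17 passed 10 CPM, of which 9 were 2-fold or more lower and 1 higher, with a list median of -1.01 beside -0.24 over all genes. Over all genes in macrophages 24% were 2-fold or more lower and 11.8% higher. Among the lower genes, named here after their values were seen, were Hmgcs1, Mvd, Idi1, Fdps and Sqle, which act at successive steps from acetyl units towards cholesterol. The 1 higher was Lbr, the lamin B receptor with sterol reductase activity, at 8.06 CPM and 99.5 CPM. Alveolar macrophages and the Arg1 cluster of the 3-day library are different populations, so the time after transplantation and the kind of macrophage cannot be told apart.

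Scd1, the desaturase, was highest in B cells among the 6 lineages. It was at 469 CPM (446 to 492) in naive, 490 CPM (452 to 530) in 2-hour and 722 CPM (706 to 738) in 3-day B cells. The 3-day level stood above both others, by a log2 ratio of 0.56 (0.44 to 0.68) to 2 hours and 0.62 (0.55 to 0.70) to naive, under 2-fold and beside an all-gene median of 0.26 for the first. After thinning to 500 UMIs, 20.0% of naive, 21.8% of 2-hour and 31.3% of 3-day B cells held a Scd1 UMI, and before thinning 83.0%, 32.4% and 91.2%. The B-cell level was 76.0 times that of T cells in the naive library, 191 times at 2 hours and 48.1 times at 3 days. The 2-hour value rests on 8 Scd1 UMIs in T cells, with a log2 ratio of 7.58 (6.59 to 8.79). Against the next-highest lineage the B-cell level was 34.5-fold in the naive library (macrophages). It was 32.0-fold at 2 hours (monocytes) and 20.6-fold at 3 days (NK cells). Scd1 was among the 10 leading genes of the 2-hour B cluster, and whether it helped to define that cluster was not examined. The 3 genes most like it over the 17 groups were Ms4a1, Ly6d and H2-DMb2 (r = 0.99 each).

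In T cells, NK cells and neutrophils the Scd1 level was highest in the library with the highest B-marker level. T cells had 6.17 CPM, 2.57 CPM and 15.0 CPM, NK cells 4.45 CPM, 11.6 CPM and 35.1 CPM, and neutrophils 2.67 CPM, 9.83 CPM and 19.6 CPM in the naive, 2-hour and 3-day libraries. Monocytes held 1.71 CPM, 15.3 CPM and 10.5 CPM, from 3, 11 and 171 Scd1 UMIs, beside 55.2 CPM, 39.0 CPM and 89.4 CPM of summed B markers. All 8 B markers were detected in each T, NK and neutrophil group, and their summed level ran from 123 CPM, 28.6 CPM and 145 CPM in T cells to 65.3 CPM, 138 CPM and 347 CPM in NK cells and 49.0 CPM, 92.6 CPM and 163 CPM in neutrophils. Per UMI of Cd79a, a subunit of the B-cell receptor, B cells held 0.227, 0.334 and 0.368 Scd1 UMIs, T cells 0.263, 0.320 and 0.401, and NK cells 0.358, 0.333 and 0.389. The T and NK intervals include the B-cell ratio of the same library in each library. The part of B-cell RNA in these Scd1 levels was not tested. Neutrophils at 3 days held 0.526 (0.442 to 0.625) Scd1 UMIs per Cd79a UMI, above the B-cell ratio of that library. Monocytes held 1.57 (0.556 to 4.78) at 2 hours and 0.486 (0.402 to 0.585) at 3 days, each above the B-cell ratio of its library. The 2-hour monocyte ratio rests on 11 Scd1 and 7 Cd79a UMIs.

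Cells without any UMI of the B-marker list held less, except in naive monocytes. In NK cells of that kind Scd1 stood at 1.70 CPM, 1.03 CPM and 9.76 CPM, and in neutrophils at 1.71 CPM, 3.23 CPM and 7.25 CPM. In such NK cells the log2 ratio of 2 hours to naive was -0.72 in place of 1.38, that of 3 days to 2 hours 3.24 in place of 1.59, and that of 3 days to naive 2.52 in place of 2.98. In such neutrophils the ratio of 2 hours to naive was 0.92 in place of 1.88 and that of 3 days to naive 2.09 in place of 2.87. Scd1 was thus higher at 3 days than naive in both lineages with or without B-marker UMIs, and the NK value at 2 hours rests on 1 UMI in such cells. The naive values in cells without a B-marker UMI rest on 6 Scd1 UMIs in NK cells and 3 in neutrophils. Monocytes without a B-marker UMI had 3.14 CPM, 5.72 CPM and 6.54 CPM in the naive, 2-hour and 3-day libraries. At 2 hours, 7 Scd1 UMIs of monocytes lay in the 10 cells with a B-marker UMI and 4 in the other 432 cells. Macrophages had 13.6 CPM and 31.02 CPM in the naive and 3-day libraries, 2.08 (1.04 to 4.38) and 0.977 (0.803 to 1.19) Scd1 UMIs per Cd79a UMI, and 11.9 CPM and 12.5 CPM in cells without a B-marker UMI. The log2 ratio of 3 days to naive in macrophages, 1.19, was 0.06 in those cells. Of clusters outside the 6 lineages, endothelial cells had 182 CPM of Scd1 in the naive and 247 CPM in the 3-day library.

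**Figure D4:**
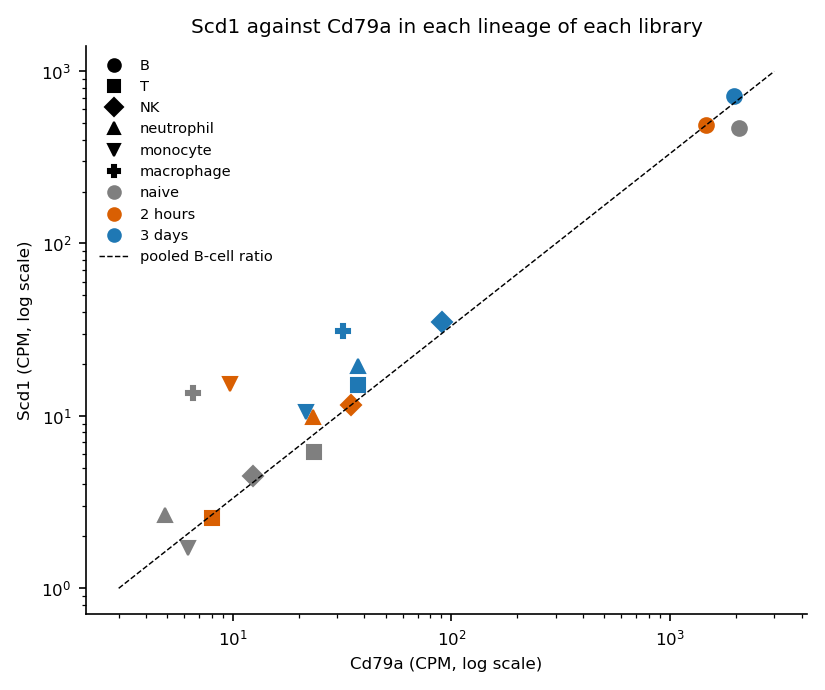
Scd1 against Cd79a (both CPM, log scales), 1 point per lineage and library with at least 50 cells; the dashed line is the ratio of their UMIs pooled over B cells. T and NK cells lie along the line, B cells at its upper end, and both macrophage points and the 2-hour monocytes above it. The 2-hour monocyte point rests on 11 Scd1 and 7 Cd79a UMIs.

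Scd2, the second desaturase, had another distribution, and among the 6 lineages its level was highest in NK cells and next in macrophages within the naive and within the 3-day library, with intervals that overlap. Outside the lineages, endothelial cells had 76.6 CPM in the naive and 268 CPM (222 to 320) in the 3-day library. NK cells had 41.7 CPM (35.8 to 48.3) in the naive library, 10.6 CPM (5.31 to 19.0) at 2 hours and 69.6 CPM (58.5 to 82.2) at 3 days. The 2-hour value rests on 11 UMIs and is low against both others, by log2 ratios of -1.97 (-3.00 to -1.10) to naive and 2.71 (1.83 to 3.75) for 3 days over 2 hours. Macrophages had 34.8 CPM and 60.4 CPM in the naive and 3-day libraries. Monocytes had 23.3 CPM, 6.96 CPM and 23.0 CPM, the middle value from 5 UMIs, and with thinning the log2 ratio of 3 days to 2 hours, 1.73, was 0.36.

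B cells had 21.5 CPM (16.9 to 26.9), 18.8 CPM (12.0 to 27.9) and 41.1 CPM (37.3 to 45.1) of Scd2, high at 3 days, with a log2 ratio to 2 hours of 1.13 (0.54 to 1.79) that was 0.96 without called doublets. T cells had 9.60 CPM, 3.21 CPM and 15.1 CPM, and neutrophils 1.34 CPM, 1.55 CPM and 2.99 CPM. NK cells held 4.34, 3.32 and 4.61 times the T-cell level in the naive, 2-hour and 3-day libraries, so NK cells stood above T cells in each. The differences of Scd2 past 2-fold from 2 hours to 3 days, in B, NK and monocyte lineages, with that of Scd1 in NK cells, are the 4 member-lineage pairs that were higher at 3 days.

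Elovl6, which elongates palmitate, was carried by T and NK cells, in opposite order in the naive library and the grafts. NK cells had 141 CPM (130 to 153) in the naive library, 41.6 CPM (30.1 to 56.0) at 2 hours and 42.6 CPM (34.0 to 52.6) at 3 days. T cells had 84.7 CPM (77.4 to 92.5), 206 CPM (190 to 222) and 134 CPM (126 to 141). Within the naive library NK cells stood above T cells, 1.67-fold, and within the grafts T cells stood above NK cells, 4.94-fold at 2 hours and 3.14-fold at 3 days. The log2 ratio of T to NK cells was -0.74 (-0.91 to -0.57), 2.31 (1.86 to 2.79) and 1.65 (1.33 to 1.98), and it sets 2 lineages of 1 library side by side, which share a preparation and a counting method. Median depths of T and NK cells were 9844 and 7677.5 UMIs in the naive library, 1128 and 842 at 2 hours and 8372 and 5215.5 at 3 days.

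Between libraries the log2 ratio of 2 hours to naive was 1.28 (1.11 to 1.45) in T cells and -1.77 (-2.25 to -1.32) in NK cells. The introns of Elovl6 sum to 99.71 kb, and relative to the 200 genes nearest in intronic length these ratios were 2.66 and -0.35. The T-cell difference was thus as large or larger, and the NK-cell difference was under 2-fold, on that scale. The ratio of 3 days to 2 hours, both of 1 software version, was -0.62 (-0.76 to -0.48) in T cells and 0.03 (-0.51 to 0.60) in NK cells.

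The T-cell level was not that of 1 T subset. Cells with Cd8a or Cd8b1 and without Cd4 had 70.2 CPM, 177 CPM and 118 CPM of Elovl6, and cells with Cd4 alone 98.7 CPM, 162 CPM and 169 CPM. The 3 T clusters of the 2-hour library had 227 CPM, 215 CPM and 95.2 CPM. Elovl6 was among the 10 leading genes of the first pair of them, and whether it took part in the clustering was not examined. The first was led by Iglc3, an immunoglobulin gene, of which 1474 of 1476 UMIs in the cluster came from 1 cell. Without that cluster the ratio of 2 hours to naive in T cells was 1.03.

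In NK cells the summed level of the 8 T markers was 275 CPM, 1321 CPM and 381 CPM in the 3 libraries, and all 8 were detected in each. NK cells without a T-marker UMI had 146 CPM (naive), 16.0 CPM (2 hours) and 35.9 CPM (3 days) of Elovl6, so the NK level at 2 hours was lower, not higher, without them. Neutrophils held 0.445 CPM, 3.36 CPM and 3.37 CPM of Elovl6 and B cells 8.30 CPM, 10.96 CPM and 2.34 CPM. At 2 hours 11 of the 13 Elovl6 UMIs of neutrophils lay in the 122 cells with a T-marker UMI, and 10 of the 14 of B cells in the 47 such cells. The part of T-cell RNA in these levels was not tested. After thinning, 3.29%, 9.61% and 6.17% of T cells and 6.01%, 1.84% and 0.915% of NK cells held an Elovl6 UMI. Unthinned shares were 33.3%, 19.9% and 47.9% in T cells and 47.5%, 3.43% and 18.0% in NK cells. The genes most like Elovl6 over the 17 groups were Sh2d1a, Ikzf2 and Cd96 (r = 0.92 each). Naive macrophages had 22.7 CPM, with 18 of 45 UMIs in 1 cell, and 3-day macrophages 6.41 CPM.

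**Figure D5:**
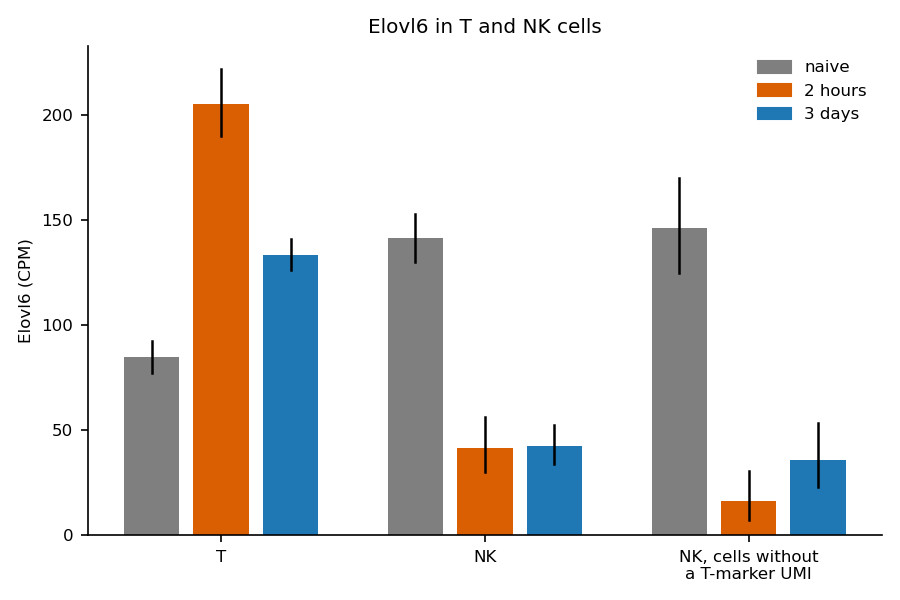
Elovl6 level (CPM, axis from 0) in T cells, NK cells and NK cells without a UMI of the T-marker list, by library, with exact 95% Poisson intervals as black lines. The naive bar is the lowest of the T cells and the highest of the NK cells, with or without T-marker UMIs.

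Fasn, which builds the fatty acids that Elovl6 lengthens, differed by under 2-fold between libraries in the lymphoid lineages. Its log2 ratios of 3 days to naive were 0.65 (0.24 to 1.09) in B, 0.96 (0.64 to 1.29) in T and 0.94 (0.47 to 1.40) in NK cells. Over all genes the medians were -0.04, -0.07 and -0.02. Over the genes nearest to Fasn in intronic length they were 0.27, 0.21 and 0.19 in B, T and NK cells. Centring on these left Fasn at 0.38, 0.75 and 0.74, so part of each ratio was shared with genes of like intronic length. B cells had 16.3 CPM (12.3 to 21.1), 18.8 CPM (12.0 to 27.9) and 25.6 CPM (22.7 to 28.8) in the naive, 2-hour and 3-day libraries. T cells had 17.7 CPM, 22.1 CPM and 34.3 CPM, and NK cells 19.9 CPM, 22.2 CPM and 38.1 CPM. All 3 lymphoid lineages thus held their highest level at 3 days, and no Fasn ratio passed 2-fold in a lineage where it averaged 10 CPM or more. T and NK cells, first in the order of lineages, did not differ beyond their intervals in any library. Neutrophils held 1, 4 and 15 Fasn UMIs, or 0.445 CPM, 1.03 CPM and 1.45 CPM, and T cells stood 39.7, 21.4 and 23.8 times above them. Monocytes had 10.2 CPM, 6.96 CPM and 6.24 CPM, and macrophages 13.1 CPM and 7.16 CPM.

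Of the 23 genes of fatty acid synthesis and desaturation, 14 in B cells, 12 in T cells and 16 in NK cells passed 10 CPM. At 3 days against 2 hours 1, 2 and 5 of them were 2-fold or more higher and 0, 0 and 1 lower, where 13.7%, 10.7% and 14.3% of all genes were higher and 5.96%, 6.18% and 6.18% lower. Of 10 genes that passed in neutrophils 4 were higher and 2 lower (13.4% and 6.94% of all genes), and of 11 in monocytes 2 and 2 (15% and 7.65%). The list medians were 0.42, 0.48, 0.48, 0.83 and 0.58 in B, T, NK, neutrophil and monocyte lineages, beside 0.26, 0.20, 0.25, 0.22 and 0.24 over all genes. The 5 in NK cells, some of them named after their values were seen, were Acly, Acaca, Scd1, Scd2 and Acsl5. Acsl4 activates long polyunsaturated fatty acids. Of list genes that passed, it had the lowest ratio of 3 days to 2 hours in B, T, NK and monocyte lineages. In NK cells Acsl4 stood at 110 CPM, 91.9 CPM and 41.1 CPM. Acsl5, another fatty acid activating enzyme, was at 32.6 CPM, 13.5 CPM and 37.8 CPM in T cells, low at 2 hours where Elovl6 was high.

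For the 7 genes, the 2-hour library against the naive one had 8 of 20 pairs 2-fold or more higher and 4 lower, where 8.36% and 26.2% of all gene-lineage pairs were. The 8 higher pairs were Insig1 in 5 lineages, Elovl6 in T cells, and Scd1 in NK cells and neutrophils. The 4 lower pairs were Scd2 in NK cells and monocytes, Elovl6 in NK cells and Hmgcs1 in monocytes. At 3 days against naive 3 of 27 pairs were higher and 5 lower, where 5.54% and 17.8% of all pairs were. By lineage, 3.74%, 2.82%, 4.5%, 7.23%, 3.48% and 11.8% of all genes were as much higher at 3 days than naive in B, T, NK, neutrophil, monocyte and macrophage lineages, and 18.3%, 16.9%, 15.6%, 15.7%, 15.3% and 24% as much lower. The 3 higher pairs were Scd1 in NK cells, neutrophils and macrophages, and the 5 lower were Elovl6 in NK cells and macrophages, Insig1 in monocytes, and Hmgcs1 and Sqle in macrophages. The monocyte difference of Insig1, -1.09, was between -0.99 and -0.88 under 4 alternatives. Since the genes were chosen on these values, the counts are descriptions and not evidence about the pathway. Insig1 in neutrophils, Scd1 in NK cells and neutrophils, and Elovl6 and Sqle in macrophages averaged 10 CPM or more only through the library where each was highest.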

How the data were processed

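Single-cell RNA-Seq libraries of naive lungs and of lung grafts (1 library per condition, 2 mice pooled each) were examined. The authors deposited, per library, a matrix of UMI counts per gene and cell barcode, made with Cell Ranger (version 6 and mm10 per the processing notes; file headers 7.1.0 for naive, 6.0.0 for grafts). The labels name a 5′ and a 3′ kit without saying which library each made, and the study's methods name a 3′ kit. The grafts' 277 antibody features were not used here. Barcodes holding 200 to 6000 detected genes, below 25000 UMIs and with a mitochondrial share below 10% entered. They were normalized with SCTransform, clustered in Seurat 5.3.0 (30 components, resolution 0.8, 28 clusters, 3 left unnamed) and named from marker lists. Doublets called by Scrublet (40, 403 and 277) were kept. UMIs were summed per lineage and library, and log2 ratios of CPM have exact conditional 95% intervals, checked on simulated data. Pairs with a mean of at least 10 CPM were compared, and "past 2-fold" is a ratio of 2 or more. With 1 library per condition no test was made. Cells of at least 500 UMIs were thinned to 500 for shares. List genes named were the highest and lowest 2 per lineage by 3 days over 2 hours, and for likeness the 3 highest Pearson r on log2(CPM + 10) among 8256 genes. Members, lists and markers were chosen with earlier results of these data known. Of the alternatives, 10 were planned and 3 were added after seeing the data. Some genes of the lists are counted in the list totals and are not reported here.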

Additional observations from a re-analysis of the deposited data

Results flagged for a closer look

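Elovl6 had log2 ratios of opposite sign in T and NK cells between the 2-hour and the naive library, 1.28 in T cells and -1.77 in NK cells. With 1 library per condition the difference between the lineages was not tested. The naive library has another software version in its file header than the grafts, and relative to genes of like intronic length the ratios were 2.66 and -0.35. Each ratio of T to NK cells was taken within 1 library, but the reversal of their order sets the naive library beside the grafts. What part the software version has in that reversal was not tested.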

How the results depend on the processing

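Of the 29 member-lineage differences past 2-fold, 26 kept their sign in every alternative that gave a value and 16 also stayed past 2-fold. The differences of Insig1 between 3 days and 2 hours stayed past 2-fold in 5 of 5 lineages under every alternative. The signs that turned were Scd1 in NK cells at 2 hours over naive (-0.93 thinned to 500 UMIs, -0.72 in cells without a B-marker UMI), Scd2 in monocytes at 2 hours over naive (0.36 thinned) and Scd1 in macrophages at 3 days over naive (-0.32 thinned). The cause was not tested. Elovl6 in NK cells was under 2-fold, at -0.35 (2 hours over naive) and -0.84 (3 days over naive), when centred on the 200 genes nearest in intronic length, an alternative chosen after seeing the data, as were those on marker UMIs and on the T cluster led by Iglc3. Thinning also left under 2-fold Insig1 in monocytes at 2 hours over naive (0.79), Scd2 in monocytes at 3 days over 2 hours (0.36), and Hmgcs1 (-0.47) and Sqle (-0.64) in macrophages. Others under 2-fold were Scd2 in B cells at 3 days over 2 hours (0.96) without called doublets, Scd1 in neutrophils at 2 hours over naive (at lowest 0.92), Hmgcs1 in monocytes at 2 hours over naive (-0.71, intronic length class) and Insig1 in monocytes at 3 days over naive (at nearest to 0, -0.88).

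Counts of pairs past 2-fold moved by over 1.5 times as follows. Pairs higher at 3 days than at 2 hours (4) became 2 with called doublets removed, 8 with CPM outside ribosomal protein, mitochondrial and immunoglobulin genes and 9 without the filter on low values. Pairs higher at 3 days than naive (3) became 9, 6 and 10 with that CPM, with thinning and without the filter. Pairs lower at 3 days than naive (5) became 2 with lineages called cell by cell, 2 with thinning and 8 without the filter. Pairs higher at 2 hours than naive (8) became 5 with thinning. Pairs lower at 2 hours than naive (4) became 2 at resolution 0.4, where monocytes could not be compared, and 8 without the filter. No paired analysis was possible because each condition had 1 library. The 2-hour library is the shallowest, and its levels resting on few UMIs (5 of Scd2 in monocytes, 11 in NK cells) have the widest intervals. Animal-to-animal spread is not measured by any interval here.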

Other observations

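Among lipid genes outside the synthesis lists, Apoe, which encodes apolipoprotein E, stood at 8.57 CPM, 15.1 CPM and 155 CPM in naive, 2-hour and 3-day T cells and at 7.26 CPM, 15.5 CPM and 112 CPM in NK cells, while monocytes held 1572 CPM, 1101 CPM and 1285 CPM. The summed macrophage markers in the same T cells were at 8.91 CPM, 2.25 CPM and 72.3 CPM, with 5, 3 and 8 of 8 detected, and in NK cells at 7.49 CPM, 12.6 CPM and 73.6 CPM, with 4, 6 and 8 detected, and their part in the Apoe levels was not tested. Macrophages had 57.4 CPM in the naive and 1580 CPM in the 3-day library. Abca1, a cholesterol exporter, was at 129 CPM and 681 CPM in the same macrophages. Apoe and Abca1 were the 2 genes of an 11-gene list of sterol efflux and esterification that were 2-fold or more higher there. Of that list 6 genes were as much lower, with a list median of -1.28 beside -0.24 over all genes. Over all genes in macrophages 11.8% were as much higher and 24% lower. Of 12 fatty acid oxidation genes 11 passed 10 CPM in macrophages, of which 5 were 2-fold or more lower and 0 higher at 3 days than in the naive library, where 24% and 11.8% of all genes were, with a median of -0.90 beside -0.24 over all genes. Naive and 3-day macrophages are different clusters, and what part the kind of cell has in these values was not tested.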
